A study of Mus musculus with 12 samples.

Results

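The genes described here are 5 Wnt ligands (Wnt3, Wnt3a, Wnt5a, Wnt5b and Wnt8a) and 5 Frizzled receptors (Fzd2, Fzd5, Fzd7, Fzd8 and Fzd10), picked by symbol from the 19680 genes of the deposited count table, which lists 18 Wnt and 10 Frizzled genes in all. They were measured by sequencing total RNA from CJ9, a mouse embryonic stem cell line, either wild type or labelled arid4b∆, a deletion of Arid4b, whose protein belongs to the SIN3-HDAC complex, a chromatin repressor. Cells of each genotype were driven towards endoderm or mesoderm over 5 days, and each of the 4 groups holds 3 libraries, numbered 1 to 3 in the labels. The labels do not give the protocols of direction, the part of Arid4b that was deleted or the number of arid4b∆ clones, and they name no treatment other than the direction itself. The labels do not tell whether libraries of one group stem from different cultures, and the p-values here rest on the spread among libraries, part or all of which may be technical.

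Wnt ligands are secreted, lipid-modified proteins that bind Frizzled receptors on the cell surface. With the co-receptors Lrp5 and Lrp6 they stabilise beta-catenin, which then acts with TCF/LEF factors on target genes such as Axin2, whereas other ligands, such as Wnt5a, are known for signalling through Ror2 and the planar cell polarity pathway. In the mouse embryo Wnt3 is required for the primitive streak, from which mesoderm and definitive endoderm arise, and Wnt3a, Wnt5a, Wnt5b and Wnt8a are known for expression in or near the streak.

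The RefSeq promoter windows on GRCm38.p6 (250 bases before to 50 bases after a start site) covered 6 of the 10 genes in 8 windows: Wnt3, Wnt3a, Wnt5b with 3 starts, Fzd5, Fzd7 and Fzd10. The bases that lie outside annotated exons are printed for 3 of them, which show a ligand that was lower with arid4b∆ in both directions (Wnt3), a receptor that was higher in both (Fzd7) and the window with a TCF/LEF match (Wnt5b). The Wnt3 stretch lies at chr11:103773925-103774149 on the plus strand, that of Fzd7 at chr1:59481897-59482146 on the plus strand, and that of the third Wnt5b start at chr6:119449387-119449636 on the minus strand. Sequences run 5′ to 3′, and capitals mark matches on either strand to CTTTGAT (a TCF/LEF core) or GGGCGG (a GC box, in capitals as CCGCCC where it lies on the opposite strand).
Wnt3: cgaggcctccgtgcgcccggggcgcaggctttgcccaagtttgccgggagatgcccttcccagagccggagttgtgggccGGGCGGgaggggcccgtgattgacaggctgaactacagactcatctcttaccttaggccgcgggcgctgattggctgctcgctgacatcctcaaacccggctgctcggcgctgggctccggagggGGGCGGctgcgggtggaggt
Fzd7: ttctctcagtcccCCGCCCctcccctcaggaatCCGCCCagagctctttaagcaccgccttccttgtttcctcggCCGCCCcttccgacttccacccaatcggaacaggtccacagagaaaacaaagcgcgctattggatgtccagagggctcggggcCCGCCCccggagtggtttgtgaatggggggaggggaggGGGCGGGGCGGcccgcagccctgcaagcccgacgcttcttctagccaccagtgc
Wnt5b: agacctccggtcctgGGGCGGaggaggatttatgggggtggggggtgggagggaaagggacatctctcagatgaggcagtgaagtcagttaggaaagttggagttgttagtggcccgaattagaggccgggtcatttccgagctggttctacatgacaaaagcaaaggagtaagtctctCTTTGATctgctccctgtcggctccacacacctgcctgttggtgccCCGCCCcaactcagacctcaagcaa

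CTTTGAT was found in 1 of the 8 windows, at position -71 from the third Wnt5b start, and in 3.73% of all 32851 promoter windows of the same length. CTTTGAA, AGGTGTGA (a T-box motif) and TGTGGATT (a FOXH1 site) were found in 0 of the 8 windows, against 5.14%, 1.28% and 0.855% of all windows. GGGCGG was found in 7 of the 8 windows, against 35.7% of all windows. Of the 8 windows 3 belong to Wnt5b, and the window of its second start is the one without GGGCGG. The 8 windows held 53.0% to 86.3% G and C, and that share was not computed for all windows. CTTTGAT and CTTTGAA differ in their last letter and cannot share a match, and neighbouring GC boxes can overlap, as the pair at -54 and -49 of Fzd7 does. A match of letters is a description of the window and not a binding site.

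Total counts lay between 10352411 and 35664057 per library, and 1949299 to 6678892 remained once the ribosomal RNA precursor Rn45s was left out. Levels are given in CPM, counts scaled to library size after TMM scaling. On library sizes before that scaling, 3 counts correspond to 0.449 to 1.54 CPM in single libraries. After scaling these values shift, as in library 2 of arid4b∆ mesoderm, where 3 counts are 0.923 CPM instead of 0.7005. Arid4b itself was counted at 41.0 ± 3.97 CPM in wild type and 46.2 ± 4.27 in arid4b∆ endoderm, and at 42.0 ± 4.77 and 44.6 ± 2.96 in mesoderm (SD, n = 3), so whole-gene counts do not check the deletion and every direction rests on the labels. The 7 definitive endoderm markers checked (Foxa2 and Sox17 among them) summed to 150 to 231 CPM in wild type endoderm and 7.08 to 15.1 CPM in arid4b∆ endoderm. The 7 mesoderm markers (T and Mesp1 among them) summed to 164 to 384 CPM in wild type mesoderm and 6.46 to 11.7 CPM in arid4b∆ mesoderm, and Mesp1 and Msgn1 had 0 counts in the latter. Endoderm and mesoderm below name the direction of culture. Markers of fibroblasts or feeder cells (10 genes) summed to 23.3 to 76.5 CPM in wild type and 79.7 to 271 CPM in arid4b∆ endoderm, and to 27.8 to 105 and 92.2 to 219 CPM in mesoderm. The 3 wild type mesoderm libraries also differ among themselves: library 1 had the lowest mesoderm marker sum (164 CPM) and the highest fibroblast marker sum (105 CPM).

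The first comparison asks how the ligands and receptors of the arid4b∆ libraries differ from wild type in each direction. Wnt3, Wnt5b and Wnt8a were lower with arid4b∆ in both directions and Wnt5a in mesoderm. Receptors moved both ways: Fzd10 was lower and Fzd7 higher in both directions, Fzd5 was lower in endoderm, and Fzd8 was lower in endoderm and higher in mesoderm. A gene was called where the edgeR quasi-likelihood test gave an adjusted p below 0.05, over all 11635 genes tested. In endoderm 6 of the 9 tested members were called lower and 1 higher, where 12.7% of all tested genes were called (6.92% lower and 5.78% higher). In mesoderm 5 were called lower and 2 higher, where 19.1% of all tested genes were called (10.2% lower and 8.93% higher). Members, lists and markers were chosen with earlier results of these data known. Here and below, the shares of all tested genes therefore give scale and are no test of the set. Wnt3a, the tenth member, had too few counts to be tested. In bulk RNA, fewer cells of a type and less RNA per cell cannot be told apart.

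Wnt3, the streak ligand (chromosome 11, 103774150 to 103817957, plus strand, a protein-coding gene), was counted at 20.1, 19.5 and 21.5 CPM in wild type endoderm (libraries 1, 2 and 3 in that order, here and below) and at 5.52, 4.91 and 5.87 CPM in arid4b∆ endoderm. In mesoderm it stood at 33.9, 37.6 and 43.9 CPM in wild type and at 10.6, 12.6 and 13.1 CPM in arid4b∆. Each arid4b∆ library lay below each wild type library of its direction, and none of the 4 groups overlapped another. Wnt3 fell by 1.90 ± 0.17 on the log2 scale in endoderm (edgeR adjusted p = 6.59e-08; ± is SE for log2 fold changes) and by 1.68 ± 0.15 in mesoderm (adjusted p = 8.80e-08). The size of the fall was not called different between the directions (interaction -0.22 ± 0.23, adjusted p = 0.846).

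Wnt8a, a ligand of the gastrulating embryo on chromosome 18, was counted at 13.4, 10.3 and 13.6 CPM in the wild type endoderm libraries and at 0.872, 0.847 and 0.607 CPM in the arid4b∆ endoderm libraries. In mesoderm it stood at 12.7, 16.5 and 11.6 CPM in wild type and at 0.559, 0.923 and 3.47 CPM in arid4b∆. The groups did not overlap in either direction, and library 3 of arid4b∆ mesoderm stood above the other two of its group. The arid4b∆ levels rest on 11 counts over the 3 endoderm libraries and 18 over the 3 mesoderm libraries. Wnt8a fell by 3.94 ± 0.39 in endoderm (adjusted p = 2.09e-07) and by 2.93 ± 0.36 in mesoderm (adjusted p = 5.54e-06). Without library 3 of arid4b∆ mesoderm Wnt8a in mesoderm fell by 4.11 (adjusted p = 6.89e-07; over all 15 alternatives 3.72e-17 to 0.000116). The interaction was not called (-1.01 ± 0.63, adjusted p = 0.646).

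Wnt5a (chromosome 14, 28504750 to 28527448, plus strand) is a ligand best known for beta-catenin-independent signalling. It was counted at 10.5, 18.6 and 27.3 CPM in the wild type mesoderm libraries and at 4.75, 4.0 and 1.60 CPM in arid4b∆ mesoderm. In endoderm it was low in both genotypes, at 2.62, 2.74 and 4.52 CPM in wild type and 4.36, 2.88 and 1.21 CPM in arid4b∆. The mesoderm groups did not overlap although wild type library 1 lay well below the other two, and the endoderm groups overlapped. Wnt5a fell by 2.49 ± 0.38 in mesoderm (adjusted p = 8.11e-05) and was not called in endoderm (-0.26 ± 0.49, adjusted p = 0.806). The difference between those effects was 2.22 ± 0.64 and missed the threshold (adjusted p = 0.107). It passed without library 1 of wild type mesoderm (2.53, adjusted p = 0.00889) and without library 3 of arid4b∆ endoderm (adjusted p = 0.0471). With all libraries it also passed without the filter on low counts (adjusted p = 0.000144). Over 20 alternatives the adjusted p ran from 0.000144 to 0.379.

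Wnt5b (chromosome 6, 119432531 to 119544347, minus strand), the close relative of Wnt5a, was counted at 5.24, 18.0 and 14.1 CPM in wild type mesoderm and at 1.12, 2.15 and 0.800 CPM in arid4b∆ mesoderm. In endoderm it stood at 2.33, 1.72 and 2.54 CPM in wild type and at 0.291, 0.169 and 0.607 CPM in arid4b∆, which are 5 counts in all and under 3 counts in each of libraries 1 and 2. The groups did not overlap in either direction. The fall was 3.14 ± 0.46 on the log2 scale in mesoderm (adjusted p = 4.06e-05). In endoderm Wnt5b fell by 2.50 ± 0.72 (adjusted p = 0.0238), and over 14 alternatives the adjusted p ran from 0.000711 to 0.124. The endoderm call was lost without library 1 or 3 of wild type (0.0545 and 0.0704) and without library 1 or 2 of arid4b∆ (0.0510 and 0.124), and with limma-voom (0.107), and the fall was 3.13 without arid4b∆ library 3.

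Wnt3a (chromosome 11, 59248033 to 59290752, minus strand), a ligand of the later streak and tail bud, had 4, 3 and 21 counts in the wild type mesoderm libraries and 0 in all 3 arid4b∆ mesoderm libraries. In endoderm a single count was seen in library 3 of wild type, and 0 in arid4b∆. With arid4b∆ mesoderm set to a floor of 3 counts over the group, its level there was 8.3-fold lower than in wild type mesoderm. That ratio allows for no error in the wild type counts. The exact 95% counting interval of wild type over arid4b∆ mesoderm, from the 0 counts seen, had a lower limit of 6.32. The filter on low counts kept Wnt3a out of the test. A fit without that filter called the mesoderm difference (adjusted p = 7.12e-05). Intervals and floors rest on counts pooled over the libraries of a group, so they cover counting error only. They leave out the spread among libraries, and reads carried no molecular identifiers.

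**Figure D1:**
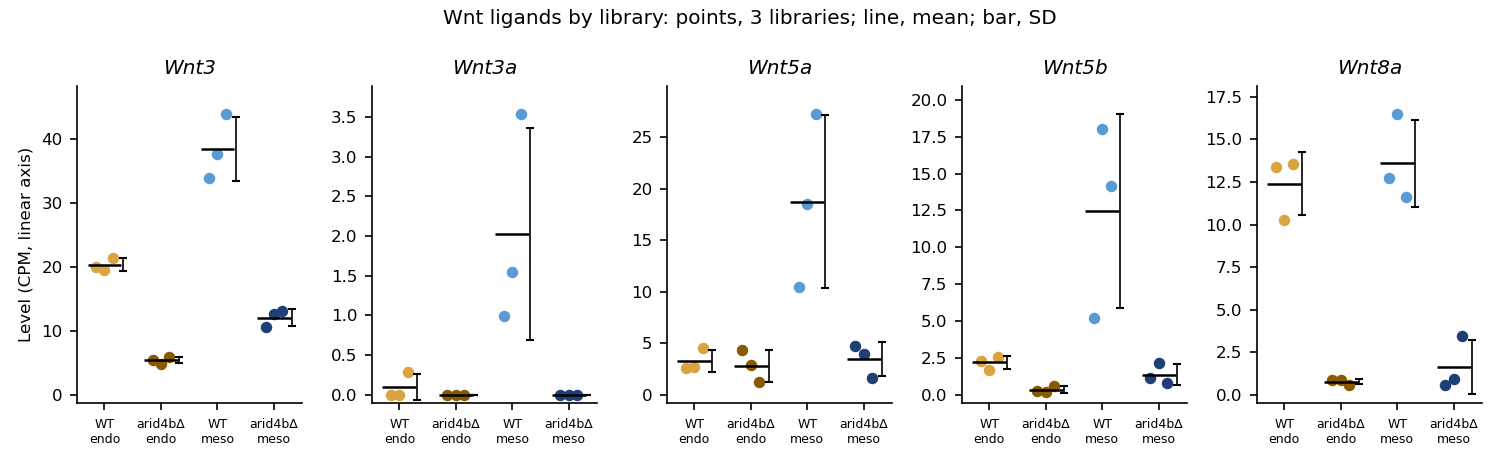
Levels of the 5 Wnt ligands in CPM (linear axes starting at 0, a scale of its own for each gene) in the 3 libraries of each group (points), with the group mean (line) and SD (bar). Wnt3, Wnt5b and Wnt8a of arid4b∆ lay below wild type in both directions without overlap, while Wnt5a overlapped in endoderm and Wnt3a had counts almost only in wild type mesoderm.

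Fzd10 (chromosome 5, 128600844 to 128604093, plus strand), a receptor of the streak and tail bud, was counted at 34.9, 55.6 and 59.1 CPM in wild type mesoderm and at 6.99, 12.3 and 14.7 CPM in arid4b∆ mesoderm. In endoderm the libraries stood at 20.1, 15.3 and 18.4 CPM in wild type and at 8.72, 5.59 and 5.87 CPM in arid4b∆. All arid4b∆ libraries lay below all wild type libraries, whichever the direction. Fzd10 fell by 2.13 ± 0.22 in mesoderm (adjusted p = 6.51e-07) and by 1.44 ± 0.26 in endoderm (adjusted p = 0.000599), with no called interaction (0.69 ± 0.36, adjusted p = 0.528).

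Fzd7 (chromosome 1, 59482424 to 59486955, plus strand), the receptor known to be abundant in pluripotent stem cells, went the other way. It stood at 45.6, 28.9 and 35.7 CPM in wild type mesoderm and at 89.8, 80.9 and 85.6 CPM in arid4b∆ mesoderm, and in endoderm at 82.3, 87.5 and 73.5 against 104, 110 and 105 CPM. The groups did not overlap in either direction, and the arid4b∆ libraries were the high ones. Fzd7 rose by 1.18 ± 0.12 in mesoderm (adjusted p = 5.47e-07) and by 0.39 ± 0.11 in endoderm (adjusted p = 0.0195). The endoderm rise was smaller by 0.80 ± 0.16 (interaction -0.80, adjusted p = 0.0106), which missed the threshold without library 2 of wild type endoderm (adjusted p = 0.0510; 0.000100 to 1 over 20 alternatives). The endoderm call was lost without library 3 of wild type (adjusted p = 0.106) or library 2 of arid4b∆ (adjusted p = 0.0694), with a range of 0.00503 to 1 over 15 alternatives whose upper end is the test against a 1.5-fold change.

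Fzd5 (chromosome 1, 64730558 to 64737751, minus strand), a receptor with a known role in the yolk sac, was counted at 63.4, 103 and 70.6 CPM in wild type endoderm and at 22.7, 30.1 and 25.1 CPM in arid4b∆ endoderm. In mesoderm it stood at 24.4, 12.9 and 18.5 CPM in wild type and at 25.2, 31.4 and 23.5 CPM in arid4b∆, where the lowest arid4b∆ library lay below the highest wild type one. In endoderm the groups were far apart, and the level of arid4b∆ endoderm overlapped both mesoderm groups. Fzd5 fell by 1.61 ± 0.17 in endoderm (adjusted p = 7.05e-07) and was not called in mesoderm (0.45 ± 0.21, adjusted p = 0.156), and the interaction was called (-2.06 ± 0.28, adjusted p = 0.000148). Without library 1 of wild type mesoderm the mesoderm difference was 0.66 and was called higher (adjusted p = 0.0475; 0.0264 to 1 over 15 alternatives).

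Fzd8, a receptor gene of a single exon on chromosome 18, was counted at 17.2, 22.8 and 16.1 CPM in wild type endoderm and at 12.2, 13.2 and 11.1 CPM in arid4b∆ endoderm. Its mesoderm levels were lower, at 2.00, 1.03 and 3.20 CPM in wild type and 7.27, 5.85 and 4.80 CPM in arid4b∆, where wild type rests on 29 counts in all. No groups overlapped, with arid4b∆ below wild type in endoderm and above it in mesoderm. The fall in endoderm was 0.64 ± 0.19 on the log2 scale (adjusted p = 0.0307), the rise in mesoderm was 1.30 ± 0.32 (adjusted p = 0.00653), and the interaction was -1.94 ± 0.38 (adjusted p = 0.00717). The endoderm call was lost without library 2 of wild type (-0.44, adjusted p = 0.263), without library 1, 2 or 3 of arid4b∆ (0.0578, 0.0650 and 0.119) and with DESeq2 (0.139), in a range of 0.0126 to 1 over 15 alternatives.

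Fzd2 (chromosome 11, 102604396 to 102608058, plus strand), a receptor for both kinds of Wnt signal, was counted at 39.0, 36.4 and 39.0 CPM in wild type endoderm and at 34.3, 30.8 and 29.3 CPM in arid4b∆ endoderm. In mesoderm it stood at 25.4, 17.5 and 12.8 CPM in wild type and at 21.5, 25.2 and 18.1 CPM in arid4b∆. The endoderm groups did not overlap and the mesoderm groups did. No genotype difference was called (endoderm -0.28 ± 0.16, adjusted p = 0.295; mesoderm 0.24 ± 0.20, adjusted p = 0.444). Without library 1 of wild type mesoderm, which had its highest level there, the mesoderm difference was 0.60 and was called (adjusted p = 0.0208), and so was the interaction (-0.88, adjusted p = 0.0258; 0.0258 to 1 over 20 alternatives).

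**Figure D2:**
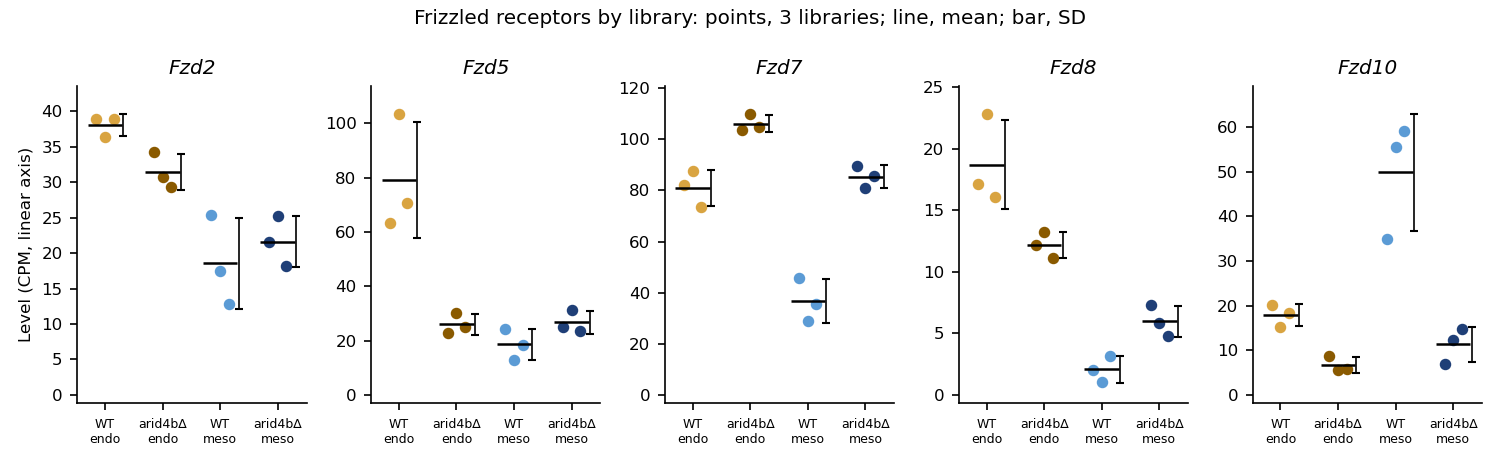
Levels of the 5 Frizzled receptors in CPM (linear axes starting at 0, a scale of its own for each gene) in the 3 libraries of each group (points), with the group mean (line) and SD (bar). Fzd10 was lower and Fzd7 higher in arid4b∆ in both directions, and wild type endoderm stood above the other groups for Fzd5.

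Counted without the test, 8 of the 9 tested members had groups of 3 libraries that did not overlap between genotypes in endoderm, against 30.2% of all tested genes, and 7 did in mesoderm, against 32.8%. The 4 tested ligands had a median log2 fold change of -2.20 in endoderm and -2.71 in mesoderm, and the 5 receptors -0.64 and 0.45. Over all tested genes these medians were -0.0037 and 0.0071. As the members were chosen with earlier results of these data known, these counts and medians describe them and do not test the family. Interactions were called for 3 of the 9 members, all receptors (Fzd5, Fzd7 and Fzd8), where 1.4% of all tested genes were called (0.774% with a negative and 0.627% with a positive value, as against 3 and 0 members). Of the fibroblast markers given above, 4 of 7 tested were called higher with arid4b∆ in endoderm, against 5.78% of all tested genes. In mesoderm 1 of 7 was, beside 8.93% of all tested genes, and the list sums of the genotypes overlapped there. Lum was not tested, with 0 counts in wild type and 5 in arid4b∆ endoderm, and 1 and 2 in mesoderm. Of 3 tested trophoblast markers (6 listed), 2 fell with arid4b∆ in endoderm and 3 in mesoderm, against 6.92% and 10.2% of all tested genes. In mesoderm the trophoblast list summed to between 53.9 and 110 CPM in wild type and between 32.2 and 36.9 CPM in arid4b∆. Most of that sum is Krt18, at 57.8 ± 19.0 and 31.4 ± 3.49 CPM in wild type and arid4b∆ mesoderm (SD). Elf5 of the same list was not tested, with 0 counts in wild type and 2 in arid4b∆ mesoderm. Hand1 is on the mesoderm list as well. Of 6 tested pluripotency markers 2 rose and 1 fell with arid4b∆ in endoderm, where 12.7% of all tested genes were called. These were Sox2 (0.92 ± 0.19, edgeR adjusted p = 0.00174), Zfp42 (1.96 ± 0.57, 0.0257) and Nanog (-1.19 ± 0.13, 1.18e-06). In mesoderm Sox2 rose (1.48 ± 0.21, 2.93e-05) and Nanog fell (-0.53 ± 0.14, 0.00836), where 19.1% were called. The sums of that list overlapped between genotypes in both directions. The part of these marker lists in the member results was not tested.

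**Figure D3:**
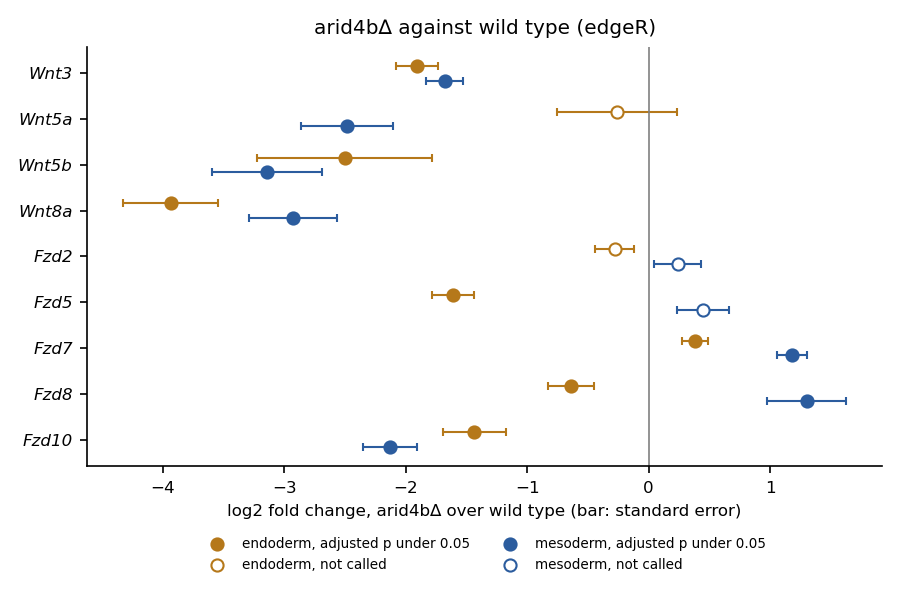
Log2 fold change of arid4b∆ over wild type for the 9 tested members, with its standard error (bar), in endoderm (ochre) and mesoderm (blue), filled where the edgeR adjusted p was under 0.05. The 4 ligands lie left of 0 in both directions (Wnt5a in endoderm was not called), while Fzd5 and Fzd8 lie on opposite sides of 0 in endoderm and mesoderm, the Fzd5 mesoderm value being not called.

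The second comparison asks which members separate the directions. It uses the same 12 libraries, so its values share libraries with the genotype comparison and are not independent of it. In wild type cells 8 of the 9 tested members were called between endoderm and mesoderm, 4 in each direction, where 9.84% of all tested genes were called (4.41% higher and 5.43% lower in endoderm), and 8 had groups that did not overlap, against 24.6%. In arid4b∆ cells 2 were called, 1 in each direction, where 1.86% of all tested genes were called (0.954% higher and 0.902% lower), and 5 had groups that did not overlap, against 18.2%.

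In wild type, Wnt3, Wnt5a, Wnt5b and Fzd10 were lower in endoderm than in mesoderm, and Fzd2, Fzd5, Fzd7 and Fzd8 were higher. The log2 differences of endoderm against mesoderm were -0.94 ± 0.14 for Wnt3 (adjusted p = 5.08e-05), -2.57 ± 0.37 for Wnt5a (5.38e-05), -2.47 ± 0.40 for Wnt5b (0.000197) and -1.49 ± 0.20 for Fzd10 (2.48e-05). Those of the other receptors were 1.06 ± 0.18 for Fzd2 (0.000281), 2.05 ± 0.19 for Fzd5 (9.84e-08), 1.11 ± 0.12 for Fzd7 (1.10e-06) and 2.97 ± 0.26 for Fzd8 (6.95e-08). Wnt8a differed least (-0.10 ± 0.25, adjusted p = 0.880), with overlapping groups. Wnt3a had 28 counts in wild type mesoderm and 1 in wild type endoderm, a ratio of 30.2 once library sizes are taken into account (exact 95% counting interval 4.99 to 1230). Markers of other cell types moved with this comparison: 2 of 2 tested extraembryonic endoderm markers (8 listed) were lower in wild type endoderm than in wild type mesoderm, Cubn (-2.52 ± 0.31, adjusted p = 6.15e-06) and Dab2 (-2.11 ± 0.35, adjusted p = 0.000252). That list summed to between 6.22 and 16.0 CPM in wild type endoderm and between 23.2 and 58.9 CPM in wild type mesoderm, while Afp had 0 counts and 1 count. Of 6 tested pluripotency markers 2 were lower in endoderm, Zfp42 (-3.27 ± 0.50, adjusted p = 8.85e-05) and Esrrb (-3.15 ± 0.62, adjusted p = 0.00139), though the sums of that list overlapped (330 to 386 and 299 to 357 CPM). Sox2, Nanog, Klf4 and Pou5f1 were not called. In other lists Gata3 (trophoblast, 1 of 3 tested, -3.01 ± 0.55, edgeR adjusted p = 0.000607) and Thy1 (fibroblast, 1 of 7, -1.90 ± 0.52, 0.0191) were lower in endoderm. Nes (neural, 1 of 2 tested) was higher (0.66 ± 0.11, 0.00028). Of all tested genes 5.43% were called lower and 4.41% higher. The part of these markers in the member differences was not tested.

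In arid4b∆ cells Wnt3 was lower in endoderm than in mesoderm (-1.16 ± 0.19, adjusted p = 0.00208) and Fzd8 was higher (1.03 ± 0.24, adjusted p = 0.0237). The Fzd8 call was lost without library 2 of arid4b∆ endoderm (0.120), without library 2 or 3 of arid4b∆ mesoderm (0.0862 and 0.168) and with DESeq2 (0.0568), in a range of 0.000974 to 0.752 over 15 alternatives. The other 7 were not called: Wnt5b -1.83 ± 0.82 (adjusted p = 0.338), Wnt8a -1.11 ± 0.58 (0.454), Fzd10 -0.80 ± 0.29 (0.192), Fzd2 0.54 ± 0.18 (0.138), Wnt5a -0.34 ± 0.51 (0.861), Fzd7 0.31 ± 0.11 (0.167) and Fzd5 -0.01 ± 0.20 (0.996). Only for Fzd5, Fzd7 and Fzd8 was the lineage difference itself called different between the genotypes, by the interaction test given above. For Fzd5 the wild type difference of 2.05 stands beside -0.01 in arid4b∆.

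**Figure D4:**
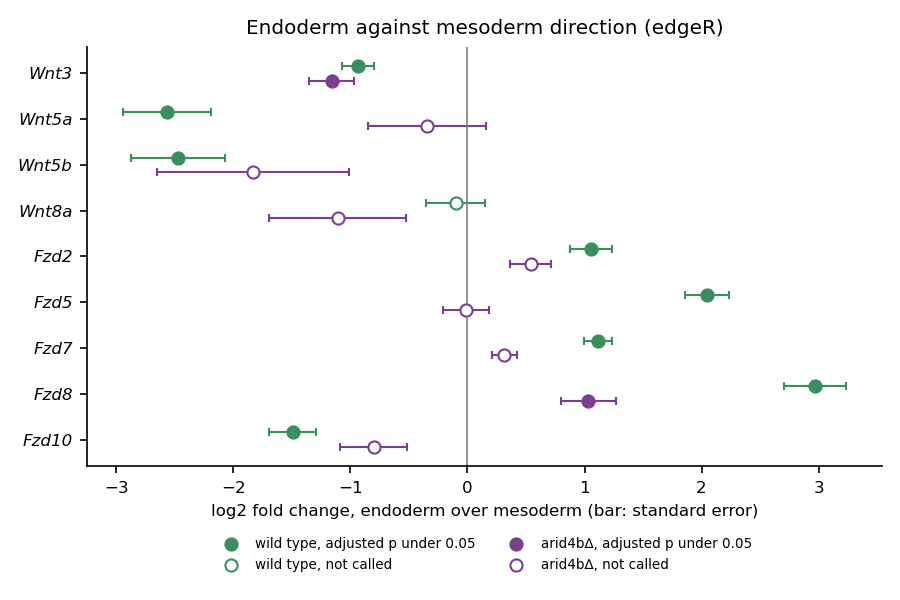
Log2 difference of endoderm over mesoderm for the 9 tested members, with its standard error (bar), in wild type (green) and arid4b∆ (purple), filled where the edgeR adjusted p was under 0.05. In wild type all members but Wnt8a are filled, and in arid4b∆ only Wnt3 and Fzd8 are.

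Levels of different genes were compared per kb of exon (CPM per kb). Among the members, Wnt3 and Wnt8a were the main ligands of wild type endoderm. They stood at 6.62 ± 0.323 and 7.11 ± 1.05 CPM per kb (SD, n = 3), which overlapped. Wnt5b (0.827), Wnt5a (0.421) and Wnt3a (0.0341) followed without overlap. In wild type mesoderm Wnt3 was highest (12.5 ± 1.65), then Wnt8a (7.79 ± 1.46), Wnt5b (4.70 ± 2.47), Wnt5a (2.40 ± 1.07) and Wnt3a (0.734 ± 0.484), where Wnt5b overlapped both of its neighbours. With arid4b∆, Wnt3 stood above the other member ligands without overlap, at 1.77 ± 0.157 in endoderm and 3.93 ± 0.422 in mesoderm. Below it came Wnt8a, Wnt5a and Wnt5b in endoderm and Wnt8a, Wnt5b and Wnt5a in mesoderm, each overlapping the next of these 3, and Wnt3a had 0 counts.

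The 5 ligands summed to 15 ± 1.61 CPM per kb in wild type and 2.70 ± 0.232 in arid4b∆ endoderm, and to 28.1 ± 5.33 and 5.83 ± 0.973 in mesoderm. The ligand sums of the genotypes did not overlap in either direction. Wnt3 made up 44.3% ± 3.18 of that sum in wild type and 65.5% ± 6.07 in arid4b∆ endoderm, and 45.1% ± 5.67 and 68.0% ± 4.51 in mesoderm. Wnt8a made up 47.2% ± 2.64 and 16.4% ± 3.08 in endoderm. These shares and sums are descriptions without a test, and a share moves when any other ligand does.

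Among receptors the leading gene of wild type cells differed by direction: Fzd7 led in endoderm (17.9 ± 1.56 CPM per kb) and Fzd10 in mesoderm (15.3 ± 4.02), each without overlap with the next. With arid4b∆, Fzd7 led in both directions, at 23.4 ± 0.718 in endoderm and 18.8 ± 0.975 in mesoderm, with Fzd2 next (8.59 ± 0.695 and 5.90 ± 0.969) and no overlap. The share of Fzd7 in the receptor sum was 37.0% ± 1.5 and 58.8% ± 1.72 in wild type and arid4b∆ endoderm, and 25.6% ± 5.59 and 57.0% ± 4.16 in mesoderm. That of Fzd10 was 48.7% ± 12.7 in wild type and 10.5% ± 3.68 in arid4b∆ mesoderm. Sums of the member receptors moved less than those of the member ligands, from 48.4 ± 3.82 to 39.9 ± 1.28 CPM per kb in endoderm without overlap. They were 31.6 ± 1.23 and 33.1 ± 0.829 in mesoderm, where the genotypes overlapped.

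**Figure D5:**
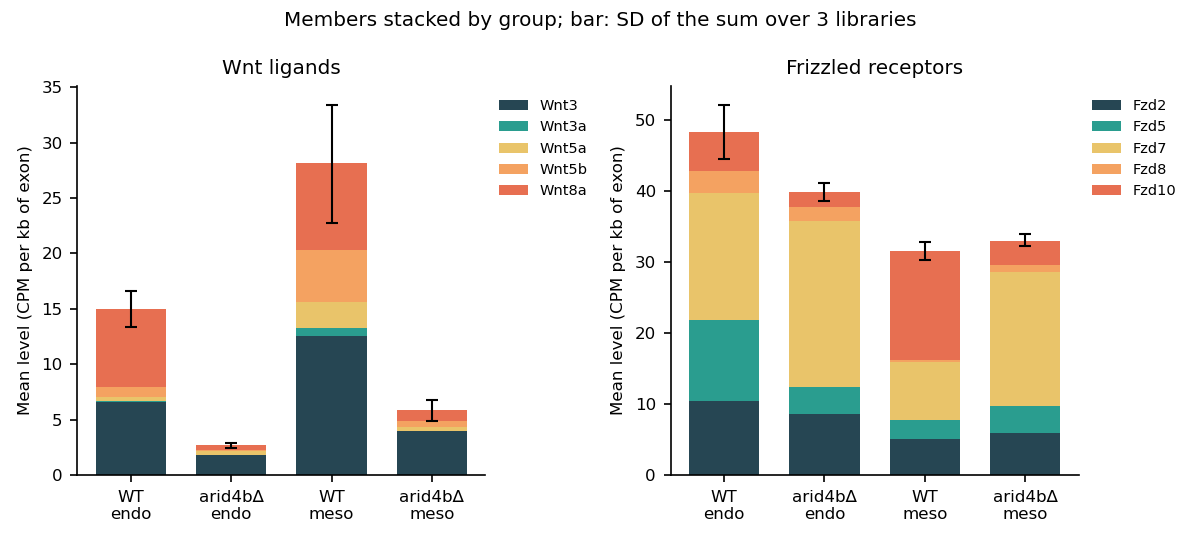
Mean level in CPM per kb of exon of the 5 ligands (left) and 5 receptors (right), stacked by gene for each group, with the SD of the sum over 3 libraries (bar). The ligand stack of arid4b∆ is shorter in both directions (2.70 and 5.83), and Fzd7 fills most of the receptor stack in both arid4b∆ groups.

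Ranked by mean CPM, each member gives its own order of the 4 groups. For Wnt3 the order was wild type mesoderm, wild type endoderm, arid4b∆ mesoderm and arid4b∆ endoderm, with no overlap between neighbours. Fzd10, Wnt5b and Wnt8a kept that order, with overlaps between the arid4b∆ groups for Fzd10 and Wnt8a, between the wild type groups for Wnt8a, and between wild type endoderm and arid4b∆ mesoderm for Wnt5b. Fzd8 went from wild type endoderm through arid4b∆ endoderm and arid4b∆ mesoderm to wild type mesoderm, with no overlap, and Fzd2 had the same order with overlap between the mesoderm groups. In Fzd7 arid4b∆ endoderm was highest (106 ± 3.26 CPM), arid4b∆ mesoderm (85.4 ± 4.42) and wild type endoderm (81.1 ± 7.08) overlapped, and wild type mesoderm was lowest (36.7 ± 8.44). Wnt5a and Wnt3a stood highest in wild type mesoderm and Fzd5 in wild type endoderm, each above 3 groups whose neighbours in the order overlapped.

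Over the 12 libraries the log2 CPM of Wnt3 and Fzd10 had a Pearson r of 0.950, Wnt3 and Wnt5b 0.931, and Fzd7 and Wnt5b -0.966. These are descriptions: the libraries fall into 4 groups, share their normalisation, and differ in depth. Among 9477 other genes with a mean of at least 5 CPM in some group, those close to Wnt3 included Axin2 (r = 0.981) and Porcn (0.980), and those most like Fzd10 were Alox15 (0.981), Exoc6b (0.980) and Scml2 (0.979). Fzd7 was most like Slc7a3 (0.976), Prrg4 (0.972) and Tcf7l1 (0.970), and Fzd5 most like Rps6ka2 (0.986), Trh (0.977) and Foxq1 (0.971). Wnt5a was nearest to Heg1 (0.957), Lancl2 (0.943) and Pmp22 (0.938), Wnt5b to Peg10 (0.968), Rai14 (0.965) and Cul4b (0.964), and Wnt8a to Plp2 (0.970), Aplnr (0.967) and Frem2 (0.966). Fzd2 was nearest to Nes (0.955), Eras (0.942) and Rnf187 (0.939). The 3 genes nearest to Fzd8 were Tmem254c (0.974), Tmem254b (0.974) and Tmem254a (0.972), near-identical copies whose counts may share reads.

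The counts over the other genes of the pathway that follow stand beside the shares of all tested genes called lower (6.92% in endoderm and 10.2% in mesoderm) and higher (5.78% and 8.93%). These lists too were drawn up with earlier results of these data known, so the shares give scale only. The remaining Wnt ligands were scarcely counted: 13 of 14 were in the table and 3 had enough counts to be tested. Wnt11, a ligand of the planar cell polarity pathway, fell from 5.02 ± 0.265 to 0.743 ± 0.652 CPM in endoderm (-2.92 ± 0.50, adjusted p = 0.000331), and without library 1 of arid4b∆ endoderm its log2 fold change was -3.67. Wnt2b fell in mesoderm (-1.48 ± 0.49, adjusted p = 0.0377), a call lost without library 2 or 3 of wild type mesoderm (0.0753 and 0.340) or any 1 of the arid4b∆ mesoderm libraries (0.0734 to 0.118), with DESeq2 (0.118) and with limma-voom (0.0899). Of the other 4 tested Frizzled genes only Fzd4, a receptor also used by Norrin, was called, higher in both directions (1.41 ± 0.39 in endoderm, adjusted p = 0.0178, and 1.85 ± 0.42 in mesoderm, adjusted p = 0.00324). The Fzd4 endoderm call was lost without library 2 or 3 of wild type (0.105 and 0.0670) or library 2 of arid4b∆ (0.115), and with DESeq2 (0.0966).

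For secretion, Porcn, the acyltransferase that attaches the lipid to Wnt proteins, fell from 2.71 ± 0.273 to 0.441 ± 0.125 CPM in endoderm (-2.58 ± 0.49, adjusted p = 0.000967) and from 5.72 ± 1.31 to 1.33 ± 0.316 CPM in mesoderm (-2.09 ± 0.38, adjusted p = 0.000416). In mesoderm Wls, the carrier of Wnt proteins to the cell surface (-1.59 ± 0.21, adjusted p = 1.24e-05), and Notum, a secreted enzyme that removes the lipid (-2.44 ± 0.70, adjusted p = 0.0165), fell as well. So 1 of 5 tested genes of this list was called in endoderm and 3 in mesoderm, all lower, against 6.92% and 10.2% of all tested genes. The Notum call was lost without library 3 of wild type (0.127) or library 1 or 2 of arid4b∆ (0.0836 and 0.0786) and with DESeq2 (0.0668), and without arid4b∆ library 3 its log2 fold change was -4.18.

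Among 6 co-receptors and alternative receptors, 2 fell in endoderm and 3 in mesoderm, where 6.92% and 10.2% of all tested genes fell. Ror2, a receptor for Wnt5a, fell by 2.20 ± 0.29 in endoderm (adjusted p = 1.34e-05) and by 2.27 ± 0.25 in mesoderm (adjusted p = 1.05e-06), from 12.6 to 2.85 CPM and from 25.9 to 5.40 CPM. Ptk7, a pseudokinase of planar cell polarity, fell by 0.41 ± 0.09 in endoderm (adjusted p = 0.00535) and by 1.09 ± 0.09 in mesoderm (adjusted p = 5.22e-08), with a called interaction (0.68 ± 0.13, adjusted p = 0.00717). Ror1 fell in mesoderm (-0.77 ± 0.24, adjusted p = 0.0253), a call lost without library 1 or 2 of wild type or library 2 or 3 of arid4b∆ (0.0761 to 0.109) and with limma-voom (0.0721). Lrp5 and Lrp6 were not called in either direction.

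The R-spondin system, which keeps Frizzled receptors at the surface, had 6 tested genes: 2 fell in endoderm (6.92% of all tested genes did), and in mesoderm 2 fell and 1 rose (10.2% and 8.93% of all). In endoderm Lgr5, an R-spondin receptor and itself a Wnt target (-3.55 ± 0.57, adjusted p = 0.000151), and Rspo3, an R-spondin (-3.20 ± 0.74, adjusted p = 0.00575), fell. In mesoderm Rspo3 fell from 19.8 ± 10.4 to 1.22 ± 0.258 CPM (-4.0 ± 0.51, adjusted p = 8.39e-06), Znrf3, a ligase that removes Frizzled receptors, fell (-0.46 ± 0.16, adjusted p = 0.0485), and Lgr4, another R-spondin receptor, rose (1.00 ± 0.13, adjusted p = 8.48e-06). The Lgr4 interaction was called (-0.86 ± 0.17, adjusted p = 0.0102). In endoderm the Rspo3 call was lost without library 2 of wild type (0.0537) and with limma-voom (0.0588), its log2 fold change was -4.28 without library 1 and -2.46 without library 2 of arid4b∆, and that of Lgr5 was -4.86 without library 2 of arid4b∆. The Znrf3 call was lost without library 3 of wild type (-0.20, 0.485) or library 1 or 2 of arid4b∆ (0.141 and 0.202). It was also lost with DESeq2 (0.147), with only the compared libraries (0.108), with RLE scaling (0.0505), with limma-voom (0.0503) and without the genes Mir6236 and Lars2 (0.0504).

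Secreted Wnt inhibitors fell in endoderm, 5 of 6 tested against 6.92% of all tested genes, and in mesoderm 1 fell and 1 rose. Cer1, an inhibitor of Wnt, Nodal and BMP and itself a marker of anterior endoderm, went from 70.8 ± 24.0 to 0.210 ± 0.183 CPM (-8.23 ± 0.41, adjusted p = 3.17e-10), and Dkk1, which blocks Lrp6, from 16.5 ± 6.28 to 0.0674 ± 0.117 CPM (-7.40 ± 0.56, adjusted p = 4.62e-09). These arid4b∆ levels rest on 3 counts for Cer1 and 1 for Dkk1 over the group, and the ratios of wild type to arid4b∆ counts were 361 (exact 95% counting interval 123 to 1750) and 252 (44.8 to 10000). Dkk1 gave -6.80 without library 2 and -9.10 without library 3 of arid4b∆ endoderm, and Cer1 -8.89 without library 2. Frzb, which binds Wnt ligands outside the cell, fell in both directions (-5.00 ± 0.49, adjusted p = 1.83e-07, and -3.47 ± 0.54, adjusted p = 8.97e-05), and gave -4.11 without library 3 of arid4b∆ mesoderm. Sfrp1, of the same family, fell in endoderm (-1.41 ± 0.17, adjusted p = 5.44e-06) and rose in mesoderm (1.2 ± 0.27, adjusted p = 0.00290), and its interaction was called (-2.61 ± 0.32, adjusted p = 4.72e-05).

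Inside the cell, 0 of 13 tested transduction genes (Ctnnb1, the beta-catenin gene, Dvl1 and Gsk3b among them) were called in endoderm by edgeR, 2 had an unadjusted p under 0.05, and DESeq2 and limma-voom called 0 as well. In mesoderm 3 of the 13 were called, close to the 19.1% of all tested genes, with small changes: Gsk3b -0.40 ± 0.10 (adjusted p = 0.00893), Dvl1 0.65 ± 0.17 (0.00913) and Csnk1e -0.46 ± 0.13 (0.0187). Each of these was lost without library 3 of wild type (0.0723, 0.0612 and 0.0937) and without 1 library of arid4b∆, library 3 for Gsk3b and Csnk1e (0.0643 and 0.0840) and library 2 for Dvl1 (0.0589), and Csnk1e also with DESeq2 (0.0843). Of 10 tested nuclear partners, 3 fell and 2 rose in endoderm (12.7% of all tested genes were called), and 5 fell and 2 rose in mesoderm (19.1% of all). Tcf7l1, the TCF factor known mainly as a repressor, rose by 1.06 ± 0.14 in mesoderm (adjusted p = 1.18e-05) and by 0.38 ± 0.12 in endoderm (adjusted p = 0.0494), while Lef1, an activating partner of beta-catenin, fell by 1.32 ± 0.16 in mesoderm (adjusted p = 6.15e-06). Tcf7l2 fell in endoderm (-1.11 ± 0.18, adjusted p = 0.000162), and Tle4, a Groucho co-repressor, rose in both directions (0.66 ± 0.11, adjusted p = 0.000276, and 0.44 ± 0.11, adjusted p = 0.00538). Tcf7, another activating partner, fell in both directions (-0.63 ± 0.13, adjusted p = 0.00183, and -0.59 ± 0.13, adjusted p = 0.00212). Bcl9l, a beta-catenin adaptor, fell in mesoderm (-0.72 ± 0.14, adjusted p = 0.000686), and Tle3, a Groucho co-repressor, in both directions (-0.38 ± 0.11, adjusted p = 0.0260, and -0.55 ± 0.12, adjusted p = 0.00211). The endoderm calls of Tcf7l1 and Tle3 were lost without any 1 of the endoderm libraries but library 1 of arid4b∆ (0.0906 to 0.181 and 0.0538 to 0.159), and with DESeq2 (0.0879 and 0.0724).

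Of 16 tested beta-catenin target and feedback genes, 9 fell in endoderm and 10 in mesoderm, against 6.92% and 10.2% of all tested genes. By edgeR 0 rose, 0 in endoderm and 1 in mesoderm had an unadjusted p under 0.05 in that direction, and DESeq2 and limma-voom called 0 higher. The list shares Lef1, Tcf7, Znrf3, Rnf43, Lgr5, Dkk1 and Notum with the lists above. Axin2, the feedback inhibitor of the pathway, fell from 27.1 ± 5.13 to 7.42 ± 0.876 CPM in endoderm (-1.89 ± 0.22, adjusted p = 2.80e-06) and from 56.4 ± 8.55 to 16.7 ± 6.15 CPM in mesoderm (-1.75 ± 0.19, adjusted p = 1.05e-06). Sp5, a target that acts on other targets, fell by 4.5 ± 0.33 in endoderm (adjusted p = 3.24e-09) and by 4.94 ± 0.42 in mesoderm (adjusted p = 5.22e-08), where it fell by 6.44 without library 3 of arid4b∆. T, the streak T-box factor, fell by 5.40 ± 0.47 and 5.51 ± 0.32 (adjusted p = 2.83e-08 and 4.83e-10). Fgf8, a growth factor of the streak, fell by 2.96 ± 0.26 in endoderm (adjusted p = 5.13e-08) and by 2.45 ± 0.33 in mesoderm (adjusted p = 1.35e-05). Cdx2, a caudal factor of posterior mesoderm, had 196 counts over wild type and 1 over arid4b∆ mesoderm (edgeR adjusted p = 6.26e-07), a ratio of 174 (exact 95% counting interval 30.9 to 6920) that rests in arid4b∆ on library 3 alone.

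Of 10 tested planar cell polarity genes, 4 fell in each direction, against 6.92% of all tested genes in endoderm and 10.2% in mesoderm. In mesoderm 1 of the 10 rose, close to the 8.93% of all tested genes. Vangl1, a membrane component of that pathway, fell by 1.5 ± 0.23 in endoderm (adjusted p = 0.000102) and by 1.13 ± 0.23 in mesoderm (adjusted p = 0.00146). Prickle3, its cytoplasmic partner, fell by 0.78 ± 0.14 (adjusted p = 0.000638) and 0.75 ± 0.15 (adjusted p = 0.00122), and Prickle2 rose in mesoderm (1.33 ± 0.28, adjusted p = 0.00193). Celsr1, a cadherin of the same pathway, fell in endoderm (-0.89 ± 0.14, adjusted p = 0.000119). Daam1, a formin of the pathway, fell by 0.48 in both directions (adjusted p = 0.0304 and 0.0456). Its endoderm call was lost without library 2 or 3 of either genotype (0.0609 to 0.219) and with DESeq2 (0.139). Its mesoderm call was lost without any 1 library other than library 1 of wild type (0.0514 to 0.170), with DESeq2 (0.148), with limma-voom (0.0527), without the filter on low counts (0.0626) and with only the compared libraries (0.0723).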

How the data were processed

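The data are gene-level read counts of 12 libraries in 1 deposited table, made by the authors with STAR, DESeq2 and build mm10, per the submitters' processing notes. The sources used here give no versions, counting program or use of strand, and overlapping and near-identical genes may share reads. Rn45s (79.6% to 82.4% of counts) and 27 genes with text in place of a count in wild type endoderm library 1 (0 members; 0.0664% of counts elsewhere) were left out. Mir6236 and Lars2, which took 49.7% to 69.5% of the remaining counts, were kept.

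Counts were tested in R 4.3.3 with edgeR 4.0.16: TMM scaling, filterByExpr with a minimum count of 10, 1 fit of 4 group means without covariates, quasi-likelihood tests, and Benjamini-Hochberg adjustment over 11635 genes at 0.05. The biological coefficient of variation was 9.71%. SE was taken as the size of the log2 fold change over the root of the F statistic. Scripts were tested on simulated data. CPM uses TMM-scaled library sizes, and CPM per kb the union of GENCODE M21 exons (GRCm38), which also gives gene positions; promoter windows are from RefSeq (GRCm38.p6). Likeness used log2 of CPM plus 0.5; 1 gene near Wnt3 is not reported here.

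All members are named in each comparison. From each pathway list, up to 4 genes with the smallest adjusted p and those called against the majority were named. Members, lists and markers were chosen with earlier results of these data known. Alternatives were RLE scaling, DESeq2 1.42.0, limma-voom (limma 3.58.1), no filter, a minimum count of 20, only the compared libraries, a replicate block, leaving out Mir6236 and Lars2, a test against 1.5-fold, and leaving out each library.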

Additional observations from a re-analysis of the deposited data

Results flagged for a closer look

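Each result here was singled out because the genotype effect in endoderm differed from that in mesoderm by the edgeR interaction test; values are the endoderm effect minus the mesoderm effect on the log2 scale. Among the receptors these were Fzd5 (-2.06, adjusted p = 0.000148), Fzd7 (-0.80, adjusted p = 0.0106) and Fzd8 (-1.94, adjusted p = 0.00717). For Fzd5 and Fzd8 the 2 effects also lay on opposite sides of 0, though the Fzd5 effect in mesoderm was not called.

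Among the other pathway genes the differences were 0.68 for Ptk7 (adjusted p = 0.00717), -0.86 for Lgr4 (0.0102), -2.61 for Sfrp1 (4.72e-05), -5.74 for Dkk1 (0.0214), 1.21 for Lef1 (0.0140), 0.89 for Bcl9l (0.0192) and -1.0 for Myc (0.0312). The Dkk1 call was lost without library 2 of arid4b∆ endoderm (0.0669) and without library 1 or 2 of arid4b∆ mesoderm (0.0771 and 0.164), and the difference was -7.44 without library 3 of arid4b∆ endoderm. The Lef1 call was lost without library 2 of wild type endoderm (0.0633), library 3 of arid4b∆ endoderm (0.0538) or library 2 of arid4b∆ mesoderm (0.0550). The Bcl9l call was lost without library 2 of wild type endoderm (0.0615), library 1 of arid4b∆ endoderm (0.0507) or library 2 of arid4b∆ mesoderm (0.0594). The Myc call was lost without library 2 or 3 of either wild type direction, any 1 library of arid4b∆ endoderm, or library 2 or 3 of arid4b∆ mesoderm (0.0540 to 0.117), and with DESeq2 (0.132).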

How the results depend on the processing

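Of 717 recomputed member results (each tested member and comparison under each alternative), 681 kept their side of the threshold, 25 lost and 11 gained a call. A called direction reversed in 0, and 10 values that were not called changed sign. For the 42 called pathway genes, 1879 of 2034 kept their side, 136 lost and 19 gained. The test against a 1.5-fold change, which asks for a larger change by construction, called 4 members in endoderm (7 in the edgeR test) and 0 between directions in arid4b∆ (2). Over all genes it called 372 of 1478 in endoderm, 504 of 2222 in mesoderm, 55 of 163 interactions, 404 of 1145 between directions in wild type and 26 of 216 in arid4b∆. Without the filter on low counts the interaction gave 377 genes and the arid4b∆ directions 483 genes and 4 members; DESeq2 called 1 member there, and the cause was not tested.

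Leaving out each library gave 4 to 6 members and 836 to 1319 genes in endoderm, 1472 to 2467 genes in mesoderm, 2 to 5 members and 104 to 354 genes for the interaction, 741 to 1391 genes between directions in wild type, and 1 to 2 members and 59 to 237 genes in arid4b∆. With fewer libraries a test has less power by construction. The highest values in mesoderm (2467), the interaction (354 genes, 5 members) and the wild type directions (1391) came without library 1 of wild type mesoderm, where all 9 tested members were called in mesoderm.

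The main fit did not use the replicate numbers to pair the libraries, and the labels do not tell whether a number marks a shared batch. The correlation of deviations exceeded 0.1 in 5 of 18 same-number pairs (range -0.056 to 0.194, against -0.176 to 0.114 for other numbers). Libraries of the same number do share structure that the main fit leaves out. Of 12 libraries 10 had their highest mean correlation with their own number, and library 1 had the highest fibroblast marker sum in all 4 groups. With the replicate block more genes were called in each comparison. Between genotypes these were 1807 in endoderm (1478 without the block) and 2476 in mesoderm (2222). There were 255 interactions (163), and 1310 genes between wild type directions (1145) and 377 between arid4b∆ directions (216). Of 45 member calls 1 changed: Fzd2 between directions in arid4b∆ (0.55, adjusted p = 0.0436). Depth limits Wnt3a, Wnt5b and Wnt8a most, whose arid4b∆ groups hold 0 to 18 counts.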
